A study of Mus musculus with 5 samples.

Results

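The immunity-related GTPases were followed through 5 single-nucleus RNA libraries of mouse brain. The 8 genes Iigp1, Irgm1, Irgm2, Igtp, Tgtp1, Tgtp2, Ifi47 and Gm4951 were taken by name from the 32285 genes counted, and each was read in every class of nuclei, with astrocytes set against microglia. The genes were listed by name and not by a threshold on these values, and the genes of this family were kept out of the clustering that defined the classes.

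Brain nuclei were sorted as DAPI+ NeuN- Olig2- to enrich microglia, and UMIs (single counted RNA molecules) were recorded per gene and nucleus. R241E denotes 2 mice that carried Tmem119-creERT2 and 1 wild-type and 1 R241E allele of Cgas, and WT denotes 3 mice that carried Tmem119-creERT2 and wild-type Cgas. The R241E substitution impairs the binding of cGAS, a sensor of cytosolic DNA, to nucleosomes. The study describes this binding as holding cGAS back, so that its loss lets DNA activate the enzyme. The allele was induced with tamoxifen in animals aged 8 to 10 weeks. The same age at tamoxifen was taken for the 3 WT mice, from methods that describe the injection for mice with the allele. The Tmem119 driver acts mainly in microglia and brain macrophages, as the study describes it. The driver was shared by all 5 mice. The treatment text in the labels is tied to no sample and was not used, the label gives hippocampus where the methods give brain, and age at collection was not used here. The substitution cannot be read from UMIs per gene, so the genotypes rest on the labels. Replicates were separate mice by their labels. The p-values set a change against the spread between these 5 animals, which the fits estimate with information pooled over all genes tested.

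Of 9748 nuclei deposited, 9505 passed the limits on genes, UMIs and mitochondrial reads, and the libraries held between 4183709 and 10130667 UMIs. No 2 libraries shared more than 2 barcodes. The labels name microglia, but the nuclei also fell into other classes named from marker genes. There were 5375 microglia, 573 astrocytes, 338 border-associated macrophages (the macrophages of meninges and perivascular spaces), 651 oligodendrocytes, 607 mural cells, 532 fibroblasts, 211 monocytes or neutrophils, 483 neurons and 193 lymphocytes, with 60 endothelial nuclei and 54 pituitary nuclei, 52 of the latter from R241E 1. A further 428 nuclei stayed unnamed. All 9 microglial and all 10 astrocytic markers were detected in at least 10% of the nuclei of their class. The class called monocytes or neutrophils was led by Cd74 and H2-Aa, genes of antigen presentation, and Retnlg and Chil3 were under that limit. The 8 GTPase genes gave 7191 UMIs in the kept nuclei, 3746 and 1418 in R241E 1 and 2 and 551, 764 and 712 in WT 1, 2 and 3. Values below are UMIs per 1000000 UMIs of a class (CPM), in the order R241E 1 and 2 and then WT 1, 2 and 3.

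Immunity-related GTPases are proteins that interferons induce and that defend a cell from within, by attacking the membrane of the vacuole in which an intracellular pathogen lives. Iigp1 (Irga6), Tgtp1 and Tgtp2 (Irgb6) and Ifi47 (Irgd) are effectors with the common nucleotide-binding motif, which load onto the vacuole, whereas Irgm1, Irgm2 and Igtp (Irgm3) are regulators that sit on the membranes of the cell itself and hold the effectors inactive there. Guanylate-binding proteins and the ubiquitin-like conjugation machinery of autophagy act with them. Gm4951 is a predicted gene of the same family. Type I interferon acts on such genes at the interferon-stimulated response element, and interferon gamma at the gamma-activated site.

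The genes lie in clusters (assembly GRCm38.p6, RefSeq). On chromosome 11, Irgm1 (48865245 to 48871420), Tgtp1 (48985329 to 48992246), Tgtp2 (49057196 to 49064212) and Ifi47 (49076587 to 49096987) are neighbours, with 114, 64.9 and 12.4 kb between them. Igtp (58199556 to 58207592) and Irgm2 (58214977 to 58222783) form a pair 7.38 kb apart, 9.1 Mb further along. Tgtp1 and Tgtp2 are near-identical copies, and reads that match both are left out of such counts, so their split is uncertain.

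Promoter windows of 250 bases before to 50 after the start of a gene were taken from RefSeq (GRCm38.p6), in which 6 of the 8 genes matched, Iigp1 and Gm4951 not being in the table. The 100 bases before the start are printed for the 5 genes that held a motif, 5′ to 3′ on the strand of the gene, to show where the elements counted in the next sentences stand. Capitals mark matches to GAAANNGAAA, a core of the interferon-stimulated response element, and to TTCNNNGAA, a core of the gamma-activated site, both searched on both strands.
Irgm1 (chr11:48871421-48871520, minus strand): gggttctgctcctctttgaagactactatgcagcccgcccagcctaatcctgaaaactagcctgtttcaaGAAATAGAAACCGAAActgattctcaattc
Irgm2 (chr11:58214877-58214976, plus strand): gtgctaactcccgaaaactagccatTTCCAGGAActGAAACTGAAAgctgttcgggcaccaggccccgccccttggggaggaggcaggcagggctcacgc
Igtp (chr11:58199456-58199555, plus strand): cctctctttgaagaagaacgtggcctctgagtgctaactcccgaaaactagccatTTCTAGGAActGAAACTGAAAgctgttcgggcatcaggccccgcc
Tgtp1 (chr11:48992247-48992346, minus strand): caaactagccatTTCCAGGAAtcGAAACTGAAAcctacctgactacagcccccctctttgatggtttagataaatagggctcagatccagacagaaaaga
Tgtp2 (chr11:49064213-49064312, minus strand): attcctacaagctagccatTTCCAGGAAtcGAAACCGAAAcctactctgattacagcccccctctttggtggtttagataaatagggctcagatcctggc

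The response element stood in 5 of the 6 windows and in 1131 of all 32851 promoter windows of that length (3.44%). In Irgm1 2 copies overlapped, at -30 to -21 and -24 to -15 from the start. The gamma-activated site stood in 4 of the 6 windows, against 8.3% of all windows. In Irgm2, Igtp, Tgtp1 and Tgtp2 the gamma-activated site was followed after 2 bases by the response element, and this arrangement occurred in 5 of the 32851 windows (0.0152%), the remaining one being Gm12185, another locus of the family named after its match was seen. That spacing was taken from these 4 genes before it was counted in all windows. The 4 are not independent, as Tgtp1 and Tgtp2 are near-identical copies and Irgm2 and Igtp share most letters around the motifs. In Ifi47 neither set of letters was found in the window. A match is a description of letters and not of factor binding. The remaining genes, Gm4951 (60212004 to 60248440) and Iigp1 (60373616 to 60392634), lie 125 kb apart on chromosome 18.

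In microglia, the resident macrophages of the brain parenchyma, the GTPase genes were higher in R241E. Of the 8 genes, 6 had enough UMIs for edgeR's quasi-likelihood test, and all 6 rose with Benjamini-Hochberg adjusted p under 0.05, against 9.31% of the 12724 genes tested that were called in either direction (1184 genes). The median log2 change of the 6 was 2.80. Both R241E libraries lay above all 3 WT libraries for 7 of the 8 genes, an arrangement seen in 16.1% of the genes with a UMI in microglia.

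Gm4951 stood at 305 and 255 CPM in R241E against 22.6, 22.8 and 22.2 CPM in WT. The groups were far apart and the WT libraries nearly equal, with 280 ± 35.6 (SD, n = 2) against 22.6 ± 0.325 (SD, n = 3), and the log2 fold change was 3.62 (SE 0.12, edgeR adjusted p = 5.055e-11). The effector Iigp1 measured 77.3 and 103 CPM in R241E and 0.404, 4.61 and 0.30 CPM in WT, a log2 change of 5.32 (SE 0.38, edgeR adjusted p = 1.215e-07). Its UMIs were unevenly spread over nuclei. The 394 UMIs of R241E came from 105 of 1529 microglia, and 1 nucleus held 17 of the 22 UMIs of WT. Tgtp2, an effector of the Irgb6 type, read 29.8 and 33.3 CPM in R241E and 2.02, 2.31 and 1.5 CPM in WT (log2 fold change 3.94, SE 0.28, edgeR adjusted p = 1.283e-07), while its near-copy Tgtp1 gave 3 and 4 UMIs in the groups and allowed no comparison.

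The log2 fold changes of the regulators were smaller. Irgm1 read 111 and 97.7 CPM in R241E and 24.3, 29.8 and 24.6 CPM in WT, a log2 change of 1.97 (SE 0.14, edgeR adjusted p = 1.585e-07). Igtp stood at 25.8 and 20.8 CPM in R241E against 4.85, 8.07 and 11.7 CPM in WT, and its log2 change of 1.48 (SE 0.28, edgeR adjusted p = 2.417e-03) was not called without R241E 1 (edgeR adjusted p = 0.1109). Irgm2 was the member with the smallest change. Its levels of 133 and 123 CPM in R241E and 78, 73.8 and 87.3 CPM in WT gave a log2 change of 0.68 (SE 0.11, edgeR adjusted p = 8.957e-04). Ifi47, an effector, was listed at 2.51 and 2.08 CPM in R241E against 0 in all WT libraries, 11 UMIs against 0, which is at least 8.04-fold higher when 3 UMIs are allowed over the WT group. It was too low for the test.

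**Figure D1:**
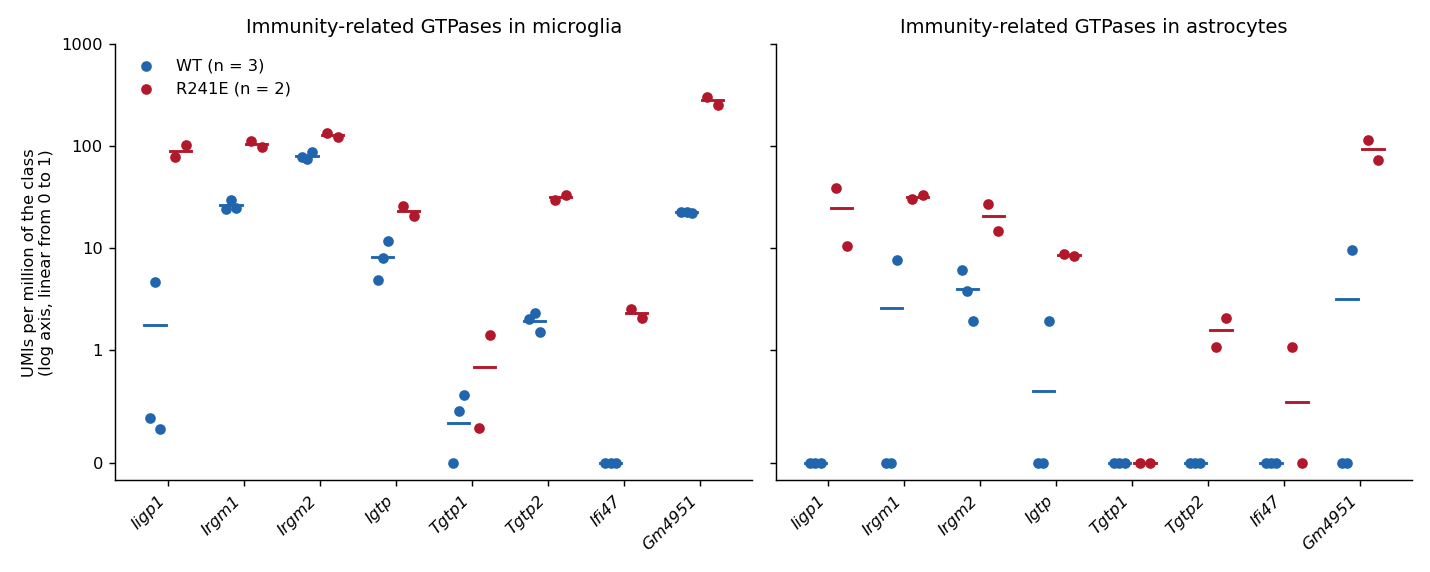
Levels of the 8 immunity-related GTPase genes in microglia and astrocytes, in CPM on a log axis that is linear from 0 to 1, with 1 point per mouse and bars at the group means. In microglia the R241E points of 7 genes lie above all WT points, and in astrocytes those of 6 genes do, most WT points there being at 0.

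The rise was also seen per nucleus. With every nucleus thinned to 1000 UMIs, 38.3 and 34.8% of R241E microglia and 12, 11.7 and 15.1% of WT microglia held a UMI of any of the 8 genes (exact 95% intervals for counting error 35.3 to 41.4% and 30.6 to 39.2% in R241E). Without thinning these shares were 66.2 and 56.8% against 26.5, 29.6 and 25.9%. UMIs of at least 2 of the 8 genes were found in 10 and 8.25% of thinned R241E microglia and in 0.775, 0.829 and 0.794% of thinned WT microglia. All R241E shares lay above all WT shares. Neurons, which were taken as a class with little interferon-induced RNA, gave 3.77 and 3.26% against 0.909, 0 and 0% at the same thinning, with median depths before thinning of 2200 to 6141 UMIs against 2062 to 3056 in microglia. The neuron class was made up differently in the groups. Its cluster 20 held 2 and 5 R241E and 147, 14 and 22 WT nuclei, and its cluster 7 held 13 and 46 R241E and 1, 3 and 1 WT nuclei.

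**Figure D2:**
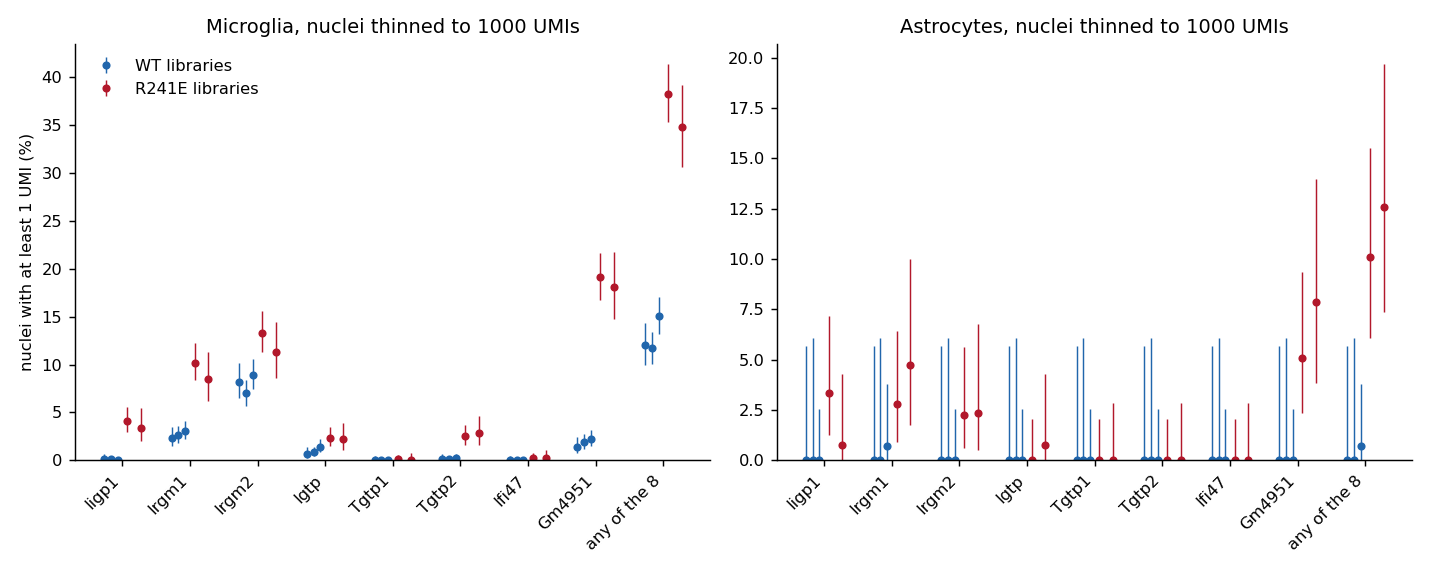
Share of nuclei with a UMI of each gene and of any of the 8 genes after thinning to 1000 UMIs, in percent, with 1 point per library and exact 95% intervals that cover counting error only. R241E microglia sit at 38.3 and 34.8% and WT microglia at 11.7 to 15.1%, and R241E astrocytes at 10.1 and 12.6% and WT astrocytes at 0 to 0.694%.

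R241E and WT microglia were mostly held by different clusters. Clusters 1 and 9 held 616 and 464 of the R241E microglia, and clusters 17 and 2 held 2338 and 1159 of the WT microglia. Within each of the 5 microglial clusters Gm4951 was higher in R241E than in WT nuclei, in pooled CPM 138 against 65.7 in cluster 1, 74.9 against 16.8 in cluster 2, 160 against 7.34 in cluster 8, 583 against 388 in cluster 9 and 100 against 19.4 in cluster 17. Iigp1 differed in its distribution. In R241E it stood at 233 CPM in cluster 9 and between 0 and 18 CPM in the other clusters. The 18 WT nuclei of cluster 9 read 456 CPM of Iigp1 and 434 CPM of Irgm2, above the 233 and 177 CPM of the 464 R241E nuclei there. Irgm1 (274 against 184 CPM), Igtp (45.6 against 36.8 CPM) and Tgtp2 (91.3 against 65.4 CPM) were also higher in WT in that cluster. Gm4951, Ifi47 and Tgtp1 were higher in R241E. The WT value of Iigp1 includes the nucleus with 17 UMIs. These pooled values carry no test.

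**Figure D3:**
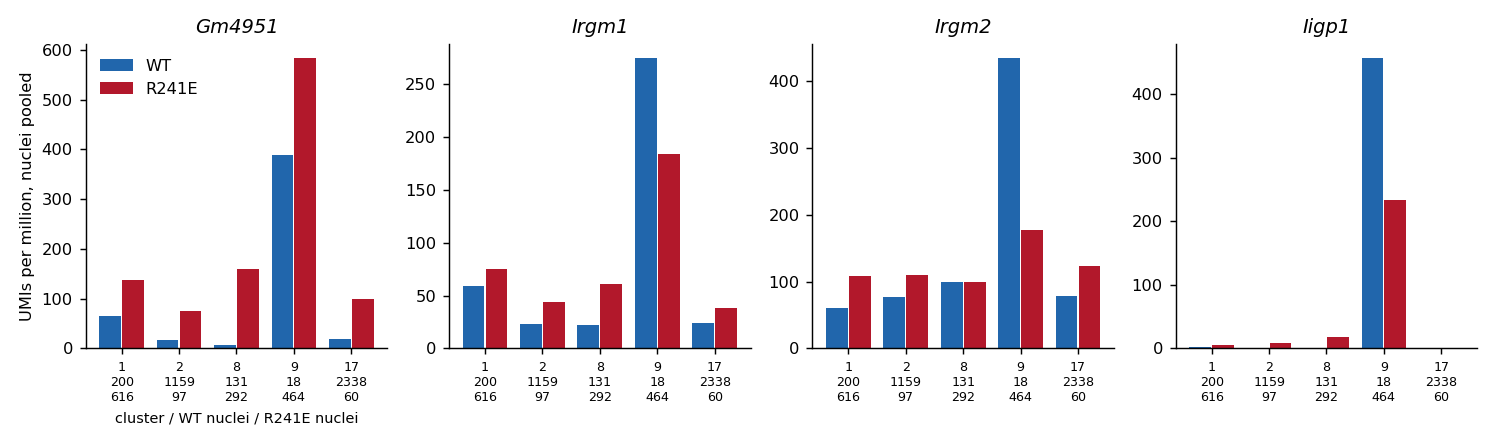
Pooled CPM of Gm4951, Irgm1, Irgm2 and Iigp1 in the 5 microglial clusters, R241E beside WT, with the cluster, its WT nuclei and its R241E nuclei under each pair of bars. Gm4951 is higher in R241E in every cluster, and Iigp1 in R241E nuclei reaches 233 CPM in cluster 9 and 0 to 18 CPM in the other clusters. In cluster 9 Irgm1, Irgm2 and Iigp1 are higher in the few WT nuclei.

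Astrocytes, the glia that support synapses and vessels, were outside the main range of the driver and held very few GTPase UMIs in WT. The 8 genes together gave 273 UMIs in R241E astrocytes and 14 UMIs in WT astrocytes. Both R241E libraries lay above all WT libraries for 6 of the 8 genes, an arrangement seen in 9.87% of the genes detected there. Only Gm4951 and Irgm1 passed the filter on low counts, and 1 of them was called, against 0.430% of the 7911 genes tested (34 genes). In such summed counts per class, a change in the share of astrocytes that express a gene and a change in the RNA of each astrocyte cannot be told apart.

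Gm4951 read 115 and 72.8 CPM in R241E astrocytes and 0, 0 and 9.6 CPM in WT astrocytes. With 141 UMIs against 5, its log2 fold change was 4.41 (SE 0.58, edgeR adjusted p = 0.01046). The call was lost without R241E 1 (edgeR adjusted p = 0.1017) and without WT 2 (0.1717), and adjusted p was 0.095 in DESeq2's Wald test and 0.1192 in limma-voom. Irgm1 stood at 30.3 and 33.3 CPM in R241E against 0, 0 and 7.68 CPM in WT, and its log2 change of 3.13 (SE 0.74) did not pass (edgeR adjusted p = 0.1176). The groups did not overlap for either gene.

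The members under the filter were described by their UMIs. Iigp1 was listed at 38.9 and 10.4 CPM in R241E against 0 in every WT library, 41 UMIs against 0, at least 10.8-fold higher when 3 UMIs are allowed over the WT group. Irgm2 read 27 and 14.6 CPM in R241E and 6.1, 3.82 and 1.92 CPM in WT, from 32 and 4 UMIs. Igtp read 8.65 and 8.32 CPM in R241E and 0, 0 and 1.92 CPM in WT, 12 UMIs against 1, a ratio of 9.48 with an exact 95% counting interval of 1.4 to 405. Both R241E libraries were above all WT libraries for these 3 genes, on few molecules. Tgtp2 gave 2 UMIs and Ifi47 1 UMI in R241E and 0 in WT, and Tgtp1 gave none.

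After thinning, 10.1 and 12.6% of R241E astrocytes (exact 95% intervals 6.1 to 15.5% and 7.38 to 19.7%) held a UMI of any of the 8 genes. In WT astrocytes the shares were 0, 0 and 0.694%, where the zeros allow up to 4.76 and 5.08%. UMIs of at least 2 of the genes were found in 3.37 and 3.15% of the thinned R241E astrocytes and in 0 of the 63, 59 and 144 thinned WT astrocytes. Unthinned shares were 37.1 and 28.3% against 1.56, 1.69 and 4.83%. The R241E shares in astrocytes exceeded the 3.77 and 3.26% of R241E neurons, whose median depth before thinning was 6141 and 3425 UMIs against 5004 and 3435 in the astrocytes.

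Microglial RNA was present in the astrocyte class of both groups. The 9 microglial markers together stood at 254 and 385 CPM in R241E astrocytes and at 299, 497 and 549 CPM in WT astrocytes, against 9050 to 10214 CPM in microglia. If the GTPase RNA of R241E astrocytes stood to these markers as it did in the microglia of the same library, Gm4951 would read 8.58 and 9.78 CPM, and 115 and 72.8 CPM were measured, 13.4 and 7.45 times as much. For Irgm1 the corresponding levels were 3.12 and 3.75 CPM against the 30.3 and 33.3 CPM measured. Iigp1 in R241E 2 was closer, with 3.93 CPM at the microglial ratio against 10.4 measured, and Tgtp2 was near it in both libraries (0.838 and 1.28 against 1.08 and 2.08 CPM). These levels take the microglia of a library as a whole. R241E microglia of cluster 9 read 583 CPM of Gm4951 and 233 CPM of Iigp1, and R241E border-associated macrophages 808 CPM of Gm4951. Whether RNA from microglia or other cells accounts for the astrocyte values was not tested. With nuclei holding at least 2 microglial marker UMIs left out, Gm4951 in astrocytes had a log2 change of 4.48 (edgeR adjusted p = 0.00352).

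The astrocyte class joined 2 clusters. Cluster 5 held 173 and 83 R241E and 38, 18 and 25 WT nuclei, and in it Gm4951 read 117 and 79.8 CPM in R241E and 0 in all 3 WT libraries. Cluster 19 held 5 and 44 R241E and 26, 41 and 120 WT nuclei. There R241E 2 read 59.7 CPM of Gm4951, 23.9 CPM of Irgm1 and 29.9 CPM of Irgm2, and WT 3 read 12 CPM of Gm4951. In a fit on cluster 5 alone, a choice made after seeing the data, Gm4951 was called again (edgeR adjusted p = 0.002197).

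Whether the changes differed between astrocytes and microglia was tested by an interaction term over both classes, with the library kept as a block. Of 6 members with enough UMIs over both classes together, 0 were called by edgeR, against 0.764% of 12962 genes (99 genes), and 1 had an unadjusted p under 0.05. Only Gm4951 and Irgm1 had passed the filter in astrocytes alone, and the others entered through their UMIs in microglia. DESeq2 and limma-voom called 0 as well. The fitted difference was positive, toward the larger log2 fold change in astrocytes, for all 6 members in edgeR and for 4 of 6 in DESeq2 and limma-voom, where those of Iigp1 (-1.09 and -1.69) and Tgtp2 (-2.49 and -3.19) were negative. No member had more than 5 WT UMIs in astrocytes, so the count of positive signs is a description and no sign of a larger change there. The difference was 0.87 for Gm4951 (SE 0.66, edgeR adjusted p = 0.8002), 1.19 for Irgm1 (SE 0.74, edgeR adjusted p = 0.705) and 2.03 for Irgm2 (SE 0.68, edgeR adjusted p = 0.2024). With the upper limits on nuclei lifted, Irgm2 passed, with a difference of 2.77 (edgeR adjusted p = 0.01629). Of the nuclei this added to R241E 2, 2 were nearest to astrocytes, and 1 of them held 11 UMIs of Irgm2. The kept astrocytes of both R241E libraries held 32. How far the call rests on that nucleus was not tested. A p that misses the threshold does not show that the changes were equal.

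**Figure D4:**
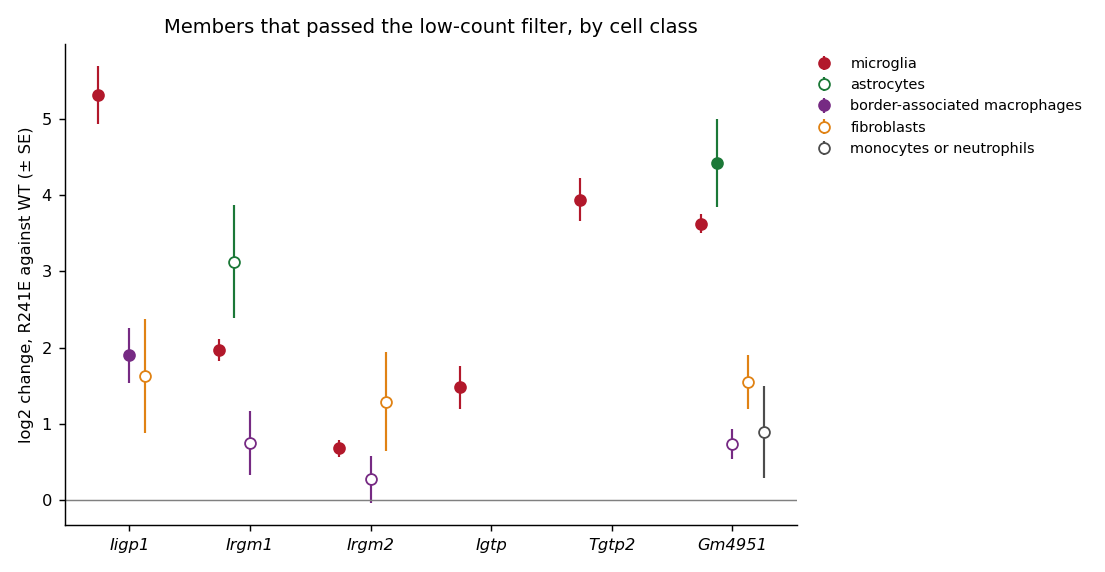
Log2 fold changes (R241E over WT) of the members that passed the filter on low counts, by class, with bars of 1 SE. Filled points had an edgeR adjusted p under 0.05. In microglia the 6 tested members run from 0.68 (Irgm2) to 5.32 (Iigp1), and in astrocytes Gm4951 and Irgm1 stand at 4.41 and 3.13 with wider bars.

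Border-associated macrophages carried the highest Gm4951 levels of the 8 classes compared in both groups. Gm4951 read 886 and 731 CPM in R241E and 670, 388 and 443 CPM in WT, a log2 change of 0.74 (SE 0.20) that did not pass (edgeR adjusted p = 0.08151). Of 4 members tested 1 was called, Iigp1, against 0.844% of 3911 genes (33 genes). Iigp1 stood at 432 and 259 CPM in R241E against 149, 18.8 and 128 CPM in WT, with a log2 change of 1.90 (SE 0.36, edgeR adjusted p = 4.857e-03). WT 2 was the low library here, and the call was lost without it (edgeR adjusted p = 0.1279), without R241E 1 (0.07119), at Leiden resolution 0.5 (0.4805) and in DESeq2's Wald test (0.9998). The R241E libraries lay above all WT libraries for 6 of the 8 genes, against 9.01% of the genes detected.

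Neither regulator that was tested in border-associated macrophages passed. Irgm1 read 86.4 and 78.6 CPM in R241E and 60.9, 56.4 and 35 CPM in WT (log2 fold change 0.75, edgeR adjusted p = 0.7132). Irgm2 read 130 and 149 CPM in R241E and 102, 138 and 105 CPM in WT (0.27, edgeR adjusted p = 0.925), the groups overlapping. Tgtp2 stood at 43.2 and 39.3 CPM against 33.8, 0 and 11.7, and Ifi47 at 24.7 and 31.5 CPM against 6.77, 0 and 17.5. After thinning, 68.0 and 72.7% of R241E and 44.2, 45.8 and 50.6% of WT nuclei held a UMI of any of the 8 genes.

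The changes of Gm4951 and Iigp1 were smaller in border-associated macrophages than in microglia. The interaction was called for 2 of 7 members, against 0.753% of 10895 genes (82 genes). For Gm4951 the log2 fold change differed by -2.83 from that in microglia (SE 0.22, edgeR adjusted p = 6.285e-34), and for Iigp1 by -3.34 (SE 0.45, edgeR adjusted p = 1.4e-10). Both stayed called whichever 1 library was left out, and in DESeq2's Wald test Gm4951 stayed called and Iigp1 did not (adjusted p = 0.9704). WT levels also differed between the classes, and whether they bear on the difference in change was not tested. WT Gm4951 was at 388 to 670 CPM in border-associated macrophages and at 22.2 to 22.8 CPM in microglia.

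Oligodendrocytes, the myelinating glia, gave 121 UMIs of the 8 genes in R241E and 4 in WT, and no member passed the filter (0.285% of 5613 genes were called there). Irgm1 was listed at 18.9 and 20.6 CPM in R241E against 0 in every WT library, 31 UMIs against 0, at least 6.63-fold higher. Irgm2 read 23.4 and 34.4 CPM in R241E and 0, 0 and 2.43 CPM in WT, 41 UMIs against 1, a ratio of 26.3 with a counting interval of 4.46 to 1063. The effector Iigp1 and the regulator Igtp each gave 15 UMIs against 0, at least 3.21-fold higher. Gm4951 gave 17 UMIs against 3, a ratio of 3.63 (counting interval 1.05 to 19.4). Its libraries overlapped, with 12.1 and 3.44 CPM in R241E and 0, 0 and 7.28 CPM in WT. In R241E 1 nucleus held 10 of its 17 UMIs and in WT 1 nucleus held all 3, so an interval that counts UMIs as independent is too narrow. A single R241E nucleus held 34 of the 121 UMIs, and 4 of the 8 genes lay apart between the groups, against 8.56% of the genes detected.

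Microglial markers stood at 248 and 230 CPM in R241E oligodendrocytes and at 177, 449 and 648 CPM in WT oligodendrocytes, values that overlap between the groups. At the microglial ratio to these markers, Gm4951 would read 8.35 and 5.85 CPM in R241E, against 12.1 and 3.44 CPM measured. For Iigp1 these levels were 2.11 and 2.35 CPM against 5.28 and 27.5 CPM measured, and for Irgm1 3.04 and 2.24 CPM against 18.9 and 20.6 CPM. Whether microglial RNA accounts for such values was not tested. Against microglia, the interaction was called for 1 of 6 members, Irgm2, with a difference of 4.03 in log2 fold change (SE 0.96, edgeR adjusted p = 8.653e-03), where 0.721% of 12475 genes were called (90 genes). The WT side of this difference rests on 1 UMI in oligodendrocytes. No member had passed the filter in oligodendrocytes alone, so the members entered this test through their UMIs in microglia. The call was lost in DESeq2 (adjusted p = 0.338), with the upper limits lifted (0.0727), with nuclei holding microglial markers left out (0.129), and without R241E 1 (0.239), R241E 2 (0.058), WT 1 (0.0869) or WT 2 (0.0869).

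Fibroblasts, the connective tissue cells of meninges and vessels, held GTPase UMIs in both groups. Of 3 members tested 0 were called by edgeR, DESeq2 or limma-voom, with 1 at an unadjusted p under 0.05 in each, where edgeR called 0% of 5978 genes (368 at an unadjusted p under 0.05) and DESeq2 called 11 higher and 6 lower. Gm4951 read 96.3 and 83.8 CPM in R241E and 13.3, 35.9 and 37.9 CPM in WT, a log2 change of 1.55 (SE 0.36, edgeR adjusted p = 0.6437). Iigp1 stood at 50.2 and 49 CPM in R241E against 46.5, 7.98 and 3.79 CPM in WT, with WT 1 close to the R241E level. Igtp read 9.49 and 2.04 CPM in R241E and 46.5, 3.99 and 15.2 CPM in WT, where 1 nucleus held 7 of the 12 WT UMIs. Tgtp1 gave 3 UMIs in R241E and 4 in WT. With no filter on low counts, 6 of the 8 fitted changes were positive. For 4 of the 8 genes the groups lay apart, against 10.3% of the genes detected.

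In mural cells, the pericytes and smooth muscle cells of vessels, no member passed the filter, and edgeR called 0% of 3862 genes (174 at an unadjusted p under 0.05), as did DESeq2 and limma-voom. The 8 genes gave 104 UMIs in R241E and 9 in WT, and 6 of them lay apart between the groups, against 10.6% of the genes detected. Gm4951 gave 22 UMIs against 0, at least 4.27-fold higher, and Irgm1 a ratio of 6.4 (counting interval 1.57 to 56.2). In neurons no member passed either (0.0287% of genes called), the 8 genes gave 24 UMIs against 7, and 2 lay apart, against 13% of the genes detected. Irgm1 in neurons gave 8 UMIs against 0, at least 5.52-fold higher. In monocytes or neutrophils Gm4951 read 194 and 129 CPM in R241E and 179, 47.2 and 72.2 CPM in WT (log2 fold change 0.89, edgeR adjusted p = 1), with 0.0529% of genes called there. It was the only member tested in that class, edgeR, DESeq2 and limma-voom called 0, with 1 at an unadjusted p under 0.05 in limma-voom only, and 1 of the 8 genes lay apart, against 7.36% of the genes detected.

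**Figure D5:**
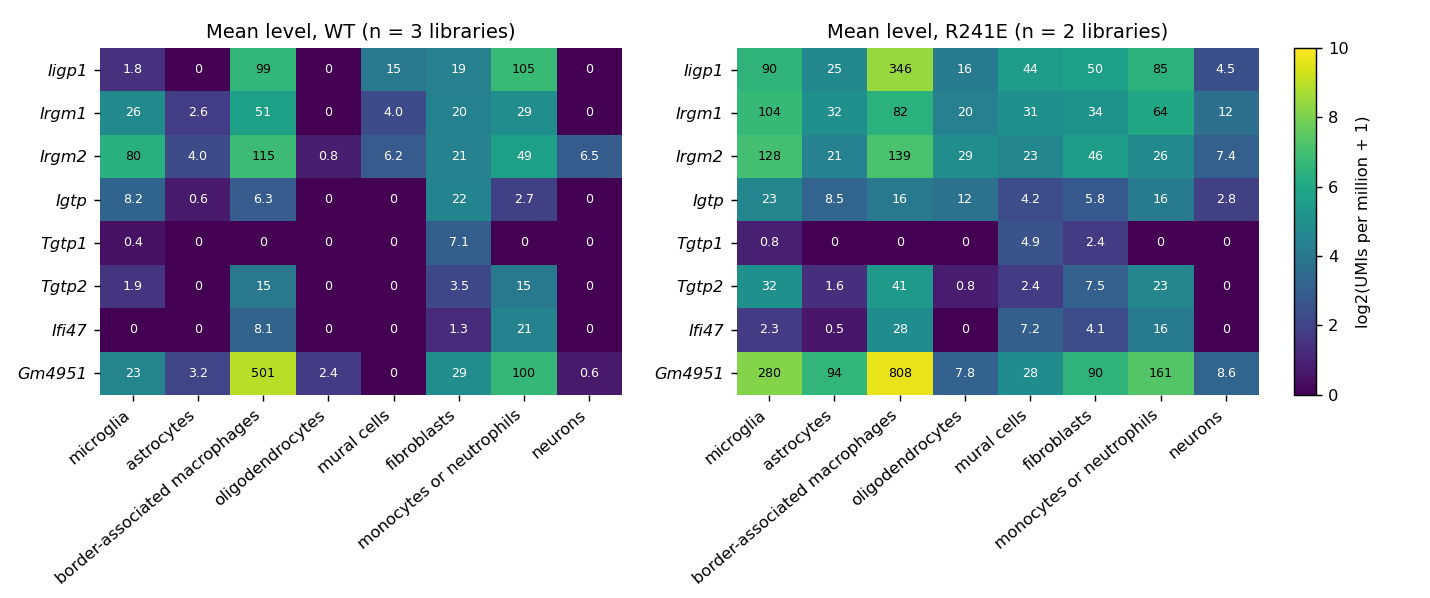
Mean CPM of the 8 members by class and group, with the numbers printed and the colour on a log2(CPM + 1) scale. Gm4951 is highest in border-associated macrophages in both groups (808 CPM in R241E, 501 CPM in WT), and in WT astrocytes and oligodendrocytes most members are at or near 0.

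Set in order of mean level, Irgm1 in R241E was highest among the 8 classes compared in microglia (104 ± 9.55 CPM, SD, n = 2), followed by border-associated macrophages (82.5 ± 5.49), monocytes or neutrophils (63.5 ± 28.9), fibroblasts (33.9 ± 13.3), astrocytes (31.8 ± 2.11), mural cells (31.3 ± 2.19), oligodendrocytes (19.7 ± 1.24) and neurons (11.8 ± 8.83). Values of the R241E libraries overlapped between neighbours from border-associated macrophages down to mural cells. In WT the order of Irgm1 began with border-associated macrophages (50.8 ± 13.9 CPM, SD, n = 3), monocytes or neutrophils (28.6 ± 5.41) and microglia (26.2 ± 3.08). Among the same 8 classes Iigp1 in R241E stood first in border-associated macrophages (346 ± 122 CPM), then in microglia (89.9 ± 17.9) and monocytes or neutrophils (85.3 ± 80.1), these last overlapping. It was at 24.7 ± 20.2 CPM in astrocytes. Endothelial nuclei and lymphocytes, which were not ranked, read 240 and 121 CPM of Iigp1 in R241E. In WT Iigp1 was listed at 0 in every library of astrocytes, neurons and oligodendrocytes.

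Genes that act with the family were taken from lists. In microglia 4 of 6 tested loci of the same kind rose, F830016B08Rik (log2 fold change 2.96), Gm5431 (2.11), Gm12185 (0.58) and 9930111J21Rik2 (0.52), the last having a near-identical copy, and none fell. All 8 guanylate-binding protein genes tested rose (median 2.16), from a list of 10, with Gbp6 at 5.86, Gbp4 at 4.92, Gbp8 at 2.44 and Gbp2 at 4.05. Among the genes listed for interferon receptors and their signalling, Stat2 (2.35, edgeR adjusted p = 4.572e-09), Irf1 (1.32) and Irf9 (1.10), which code for transcription factors of interferon responses, rose. Of 10 genes for the ubiquitin-like conjugation of autophagy, edgeR called 0, with 2 at an unadjusted p under 0.05, and their median was 0.04. The median over all genes tested was -0.005.

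In astrocytes Irf9 read 62.7 and 60.3 CPM in R241E and between 9.15 and 25 CPM in WT, and its log2 change of 1.92 (SE 0.38) missed the threshold (edgeR adjusted p = 0.05569). The groups did not overlap for Irf9. Of 3 guanylate-binding protein genes tested edgeR called 0, although Gbp6 (2.54), Gbp3 (2.31) and Gbp7 (1.37) each had an unadjusted p under 0.05. F830016B08Rik gave 30 UMIs in R241E and 0 in WT astrocytes. No locus of that list passed the filter there, and of 10 autophagy genes 0 were called, with 0 at an unadjusted p under 0.05. Stat2 (1.79) and Irf9 (3.08) were called in oligodendrocytes.

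Likeness of pattern was measured as Pearson's r of log levels over 40 points, the 5 libraries in each of 8 classes, among 14168 genes. The points share libraries and classes, so r is a description. Gm4951 was most like Ddx60 (0.911), Irgm1 (0.883) and Gbp8 (0.879). Irgm1 was most like Gm4951 (0.883), Tap1 (0.835), which carries peptides to class I molecules, and Ddx60 (0.834). Tgtp2 stood nearest Rnf213 (0.878) and the oligoadenylate synthetase genes Oas2 (0.841) and Oas1a (0.836), and Iigp1 nearest Oasl2 (0.792) and Bst2 (0.761). The pattern of Igtp was nearest that of Irgm1 (0.723) and that of Ifi47 nearest Ifi208 (0.785). None of the 3 genes nearest Irgm2 was a member, and they were Cd274 (0.806), 2900089D17Rik (0.787) and Lgals8 (0.785). Tgtp1, with 17 UMIs in all, gives no usable pattern.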

How the data were processed

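Per nucleus and gene, each deposited matrix gives UMI counts that the authors made with Cell Ranger against mm10, per the submitters' processing notes, which also list Seurat. Whether intronic reads were counted is not given in the sources used here. Nuclei with at least 200 and under 4500 genes, under 10000 UMIs and under 5% of UMIs from mitochondrial genes entered, and these upper limits were the only guard against doublets, since no caller was run. Counts were scaled and clustered with scanpy 1.11.5 (3000 variable genes without the GTPase genes, 30 principal components, 20 neighbours, Leiden resolution 1). A class took its name from marker genes, of which at least 3 had to be detected, with a mean log2 fold of at least 2 over the median of the other clusters. UMIs were summed per library and class and tested with edgeR 4.0.16 (quasi-likelihood, TMM, low counts filtered) wherever each library had 20 or more nuclei of a class, with Benjamini-Hochberg adjustment over all genes tested and a threshold of 0.05. Differences between classes were tested as an interaction with the library as a block.

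CPM is UMIs of a gene per 1000000 UMIs of its class in a library. Floors are 3 UMIs, intervals are exact at 95%, and both cover counting error only. Mice of 1 group were the replicates, and no 2 libraries agreed within sampling noise (chi-square per degree of freedom at least 2.18). The alternatives were DESeq2 1.42.0, limma 3.58.1 (voom), other filters, another resolution, a replicate block, and leaving out each library. In data simulated with 200 genes changed 4-fold, the edgeR step recovered 100.0% of them in microglia (12460 genes), 99.5% in astrocytes (7460 genes) and 85.0% in their interaction (12609 genes). The changed genes were drawn from those above a set mean count, which in astrocytes only Gm4951 of the members reached. The recovered shares therefore do not cover the other members in astrocytes. The 8 members and the gene lists were chosen with earlier results of these data known. All members were named, with up to 4 called genes of the smallest adjusted p per list in microglia and in astrocytes and the 3 genes most alike in pattern per member, among genes with at least 100 UMIs. Other genes were named after their values were seen, where a count was small.

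The study's results text gives another genotype for the controls than the sample titles, and the titles were followed. Each library was read from its own matrix. R 4.3.3 and Python 3.11.15 were used. One listed gene is not reported here, and no counts are given for its list.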

Additional observations from a re-analysis of the deposited data

Results flagged for a closer look

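The changes in 2 classes differed by the interaction test for 3 members. Irgm2 changed by 4.03 more on the log2 scale in oligodendrocytes than in microglia, with 1 WT UMI in oligodendrocytes. In border-associated macrophages the change differed from that in microglia by -2.83 for Gm4951 and by -3.34 for Iigp1, both genes having higher WT levels in border-associated macrophages (501 and 98.7 CPM) than in microglia (22.6 and 1.77 CPM).

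Nuclei over the upper limits on genes or UMIs entered only the alternative with these limits lifted, and the members were high in those of R241E. They read 152 CPM in the 82 such nuclei of R241E 1 and 647 CPM in the 20 of R241E 2, against 19.5, 13.6 and 55.6 CPM in WT. In R241E 2 a single nucleus of 11881 UMIs, nearest to astrocytes, held 107 UMIs of the members, 49 of them Iigp1, 31 Gm4951, 11 Irgm2 and 9 Irgm1, where the highest of the kept nuclei held 52. Whether it is 1 nucleus or several was not tested.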

How the results depend on the processing

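No call turned its direction. Differences that were not called did turn in part: in the interaction of astrocytes with microglia 6 of 6 were positive in edgeR and 4 of 6 in DESeq2's Wald test and limma-voom, in that of oligodendrocytes 5 of 6 and 3 of 6, and in that of border-associated macrophages 0 of 7 and, with the upper limits lifted or at resolution 0.5, 1 of 7. The 6 calls in microglia stood at 6 in most alternatives, at 7 with no filter on low counts and at 5 to 6 when a library was left out. In astrocytes, where 1 member was called, the count was 0 with DESeq2's Wald test and limma-voom and 4 with no filter. It was also 4 with the upper limits on nuclei lifted, which added the R241E 2 nucleus that held 107 UMIs of the members. When a library was left out it was 0 to 2 (0 without R241E 1 and without WT 2, 2 without R241E 2). In border-associated macrophages it went from 1 to 0 with DESeq2 and at Leiden resolution 0.5, to 2 with limma-voom and with no filter, and from 0 to 2 when a library was left out. With no filter it went from 0 to 2 in oligodendrocytes and from 0 to 1 in fibroblasts. The interaction of astrocytes with microglia gave 1 call in place of 0 with the upper limits lifted and the nucleus of 107 member UMIs added. That of oligodendrocytes gave 0 in place of 1 with DESeq2, with the limits lifted and with nuclei holding microglial markers left out, and 0 to 1 when a library was left out. That of border-associated macrophages gave 1 in place of 2 with DESeq2's Wald test, where Gm4951 was called. The cause was not tested.

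The mouse numbers of the labels only name mice. With the replicate block the members called numbered 6 in microglia, 2 each in astrocytes and border-associated macrophages, and 1 in fibroblasts. Deviations of the same-numbered libraries correlated at 0.10 and -0.018 in microglia and at 0.236 and 0.070 in astrocytes, over 2 shared numbers.

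Over all genes, calls in microglia went from 770 higher and 414 lower to 1243 and 851 with the block and to 411 and 125 without R241E 1, and those in astrocytes from 22 higher and 12 lower to 70 and 80 with the block, to 151 and 120 with no filter and to 0 with limma-voom, to 16 and 6 with nuclei holding microglial markers left out, to 8 and 0 in cluster 5 alone, to 2 and 1 without R241E 1, 40 and 56 without R241E 2, 60 and 44 without WT 1, 1 and 0 without WT 2, and 7 and 1 without WT 3. Of 208 log2 changes per gene 189 kept their side of the threshold, as did 115 of 124 differences between classes. Shares of nuclei moved by more than their spread in 32 of 36 cases, when nuclei were not thinned or were thinned to 500 UMIs, and levels in 16 of 56 when averaged over nuclei. Leaving out nuclei with microglial markers was not run in border-associated macrophages or in monocytes or neutrophils, nor resolution 0.5 in the latter, for want of nuclei. Few UMIs limit the values of low members, of which most had under 5 WT UMIs in astrocytes, oligodendrocytes, mural cells and neurons alike.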

Other observations

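Lymphocytes, of which the WT libraries held 3, 7 and 28, and endothelial nuclei were too few for a test. Ifi47 in lymphocytes read 164 and 90.2 CPM in R241E and 139, 80.4 and 127 CPM in WT, so the groups overlapped. Iigp1 in lymphocytes gave 55 UMIs in R241E and 0 in WT, at least 3.6-fold higher, and Irgm2 a ratio of 11 (counting interval 1.89 to 442). Igtp in lymphocytes gave a ratio of 5.11 (counting interval 1.34 to 43.3). In endothelial nuclei Iigp1 stood at 255 and 225 CPM in R241E against 0, 0 and 137 CPM in WT.

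Iigp1 was concentrated in few nuclei in both groups. Nuclei with at least 10 of its UMIs numbered 12 in R241E and held 216 of 839 UMIs (25.7%), and numbered 4 in WT and held 57 of 101 UMIs (56.4%). The WT ones were border-associated macrophages, microglia and monocytes or neutrophils, and the 14 UMIs of Iigp1 in WT monocytes or neutrophils came from 1 nucleus.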
